A study of Mus musculus with 18 samples.

Results

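Expression of 10 goblet and deep crypt secretory genes was followed in the colon epithelium of mice with and without Olfr78, an olfactory receptor of the gut. The genes were taken by name, with earlier results of these data known, as the rows for Muc2, Fcgbp, Clca1, Zg16, Tff3, Agr2, Spink4, Spdef, Reg4 and Sycn among the 52636 genes of the deposited tables. All 10 were found, each as 1 row, and all 10 passed the filter on low values in every comparison. The data were 18 bulk RNA-seq libraries from colon, 6 from sorted epithelial cells and 12 from whole crypts. Sorted cells came from 4- to 7-month-old animals; the ages of the mice that gave crypts are not given in the sources used here.

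The sorted groups were 2 samples of Epcam+ve/GFP-ve cells taken from 1 wild type mouse, and 4 Epcam+ve/GFP+ve pools, each made of 2 mice, of which 2 were heterozygous (HE) and 2 homozygous (KO) for Olfr78-GFP. In the Olfr78-GFP line (B6;129P2-Or51e2tm1Mom/MomJ) a GFP-IRES-tauLacZ cassette takes the place of the coding sequence, so that GFP was expressed from the receptor's own locus and GFP+ve cells of HE mice still carried 1 functional allele. For crypts the groups were 2 WT mice and 5 KO mice (Olfr78-GFP line), with 3 eControl and 2 eKO mice of a Vil1Cre x Olfr78fx cross, in which Cre recombinase under the villin promoter deletes the floxed coding exon 3 in the epithelium. The floxed strain is B6-Olfr78Tm1Mig, and the paper states that the 2 lines differ in genetic background. Controls of this cross in the paper were either floxed without Cre or carriers of Cre without a floxed allele. The eControl mice may thus not share 1 genotype. The Epcam+ve/GFP-ve samples are technical samples of 1 animal, and the library labelled eKO 2 carries the same genotype label as eControl mouse 2 (WT/HO). By the study's naming this reads as no Cre and homozygous for the floxed allele, a genotype that the study used among its controls. The label of eKO 1 is HE/HO. The library titled eKO 2 may thus be a control without deletion, and which of its labels is right was not tested. The main limma results of the 10 genes that rest on the floxed line are therefore given with and without that library. Results of edgeR and DESeq2, shares of all genes, correlations between genes and counts over gene lists include it.

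The goblet cell fills its apical granules with the gel-forming mucin Muc2, which is folded in the endoplasmic reticulum and unfolds on release into the mucus that separates the colon epithelium from bacteria. Goblet, deep crypt secretory and enteroendocrine cells all arise from secretory progenitors that express Atoh1. Deep crypt secretory cells lie between the stem cells at the base of colon crypts, where they are marked by Reg4, and enteroendocrine cells release serotonin and peptide hormones.

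Of the 10 genes, 6 had a promoter in the RefSeq table of GRCm38.p6, namely Muc2, Agr2, Fcgbp, Spdef, Reg4 and Sycn; Tff3, Clca1, Zg16 and Spink4 had none there. The 250 bases before the start of transcription are given here for Muc2, the most abundant gene, and for Reg4 and Sycn, which went apart from the other 8 genes between KO and HE pools. Capitals mark matches, on either strand, to 5 motifs. The motifs were the TATA box (TATAAA), an E-box of the class bound by ATOH1 (CAGNTG), a forkhead motif (TGTTTAC), a CDX motif (TTTATNG) and an ETS motif of the SPDEF class (CCGGAT).
Muc2, chr7:141690090-141690339, plus strand: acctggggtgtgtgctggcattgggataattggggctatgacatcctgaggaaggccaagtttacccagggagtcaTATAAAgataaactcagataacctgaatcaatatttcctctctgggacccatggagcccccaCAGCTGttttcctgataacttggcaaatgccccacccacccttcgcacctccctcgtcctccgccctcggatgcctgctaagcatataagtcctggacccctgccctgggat
Reg4, chr3:98221906-98222155, plus strand: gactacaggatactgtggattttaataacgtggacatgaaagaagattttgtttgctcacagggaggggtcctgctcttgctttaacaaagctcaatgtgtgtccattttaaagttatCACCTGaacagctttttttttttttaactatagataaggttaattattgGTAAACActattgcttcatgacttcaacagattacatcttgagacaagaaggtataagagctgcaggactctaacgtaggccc
Sycn, chr7:28540635-28540884, plus strand: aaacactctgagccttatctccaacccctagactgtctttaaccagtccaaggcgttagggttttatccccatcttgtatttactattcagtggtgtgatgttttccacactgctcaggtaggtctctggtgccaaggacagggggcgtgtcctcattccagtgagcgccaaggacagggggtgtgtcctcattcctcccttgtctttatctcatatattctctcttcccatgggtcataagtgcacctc

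The Muc2 window held 1 TATA box, 174 bases before the start, and 1 E-box, 112 bases before it. The Reg4 window held 1 E-box, 132 bases before the start, and 1 forkhead match, 83 bases before it, whereas the Sycn window held no match to any of the 5. Among the 32851 promoter windows of the same length in the table, 44.8% held the E-box, 12.4% the TATA box, 9.81% the CDX motif, 4.94% the ETS motif and 3.17% the forkhead motif. Of the 6 windows of these genes, 3 held the E-box and 1 each the TATA box, the CDX motif and the forkhead motif. These matches describe the letters of the windows and were not tested for binding.

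All 10 are protein-coding genes of GRCm38 in GENCODE M21. Muc2 (chr7:141690340-141754693, plus strand), Fcgbp (chr7:28071236-28120862, plus), Sycn (chr7:28540885-28542209, plus) and Zg16 (chr7:127050156-127087328, minus) are on chromosome 7, as is Olfr78 (chr7:102738511-102759471, minus). Reg4 (chr3:98222156-98236748, plus) and Clca1 (chr3:145003817-145032776, minus) are on chromosome 3. Tff3 (chr17:31125306-31129646, minus) and Spdef (chr17:27714352-27728955, minus) are on chromosome 17, Agr2 (chr12:35992907-36004087, plus) is on chromosome 12 and Spink4 (chr4:40920052-40931395, plus) on chromosome 4. No other annotated gene shared exon bases with any of the 10. Olfr78 shared 926 exon bases with Olfr560 on the same strand, so reads over that stretch could have been assigned to either gene.

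Values are reads on a gene scaled to 20000000 per library (CP20M). The sorted libraries held 532702 to 2237475 recovered reads on genes, with KO pool 1 the shallowest, where 1 read was worth 37.5 CP20M. The crypt libraries held 6175299 to 10995300. Olfr78 itself was at 135 and 21 CP20M in Epcam+ve/GFP-ve cells, 4822 and 4401 in HE pools, against 977 and 837 in KO pools, in which the coding sequence is replaced but other exons of the gene are not. In crypts it was at 88 and 111 in WT mice, 7 to 42 in KO mice, 61 to 124 in eControl mice, 21 in eKO 1 and 73 in the library labelled eKO 2. The last value lies within the range of the eControl mice. Enteroendocrine markers (6 genes, among them Chga, Chgb and Tph1) summed to 853733 and 1109150 CP20M in HE pools 1 and 2, to 601011 and 355630 in KO pools 1 and 2, and to 12989 and 12638 in Epcam+ve/GFP-ve cells. The latter carry the subtype label enteroendocrine, which these markers do not bear out.

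The first question was how abundant the secretory genes are in each population. Muc2 alone took 1.65% and 1.38% of reads in WT crypts, and the 10 genes together took 2.35% and 2.05%. Together they took 1.95% to 3.35% of reads in KO crypts, 2.12% to 3.32% in eControl crypts and 2.02% and 2.84% in eKO crypts, ranges that overlap between genotypes of a line. In sorted Epcam+ve/GFP-ve cells the share was 1.85% and 1.63%. In GFP+ve cells it was 0.826% and 0.429% in HE pools 1 and 2 and 0.362% and 1.72% in KO pools 1 and 2. The 2 KO pools thus spanned the range from below both HE pools to within that of the Epcam+ve/GFP-ve samples. Sorted cells and crypts were extracted with different kits, so levels between them are given side by side without a test.

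**Figure D1:**
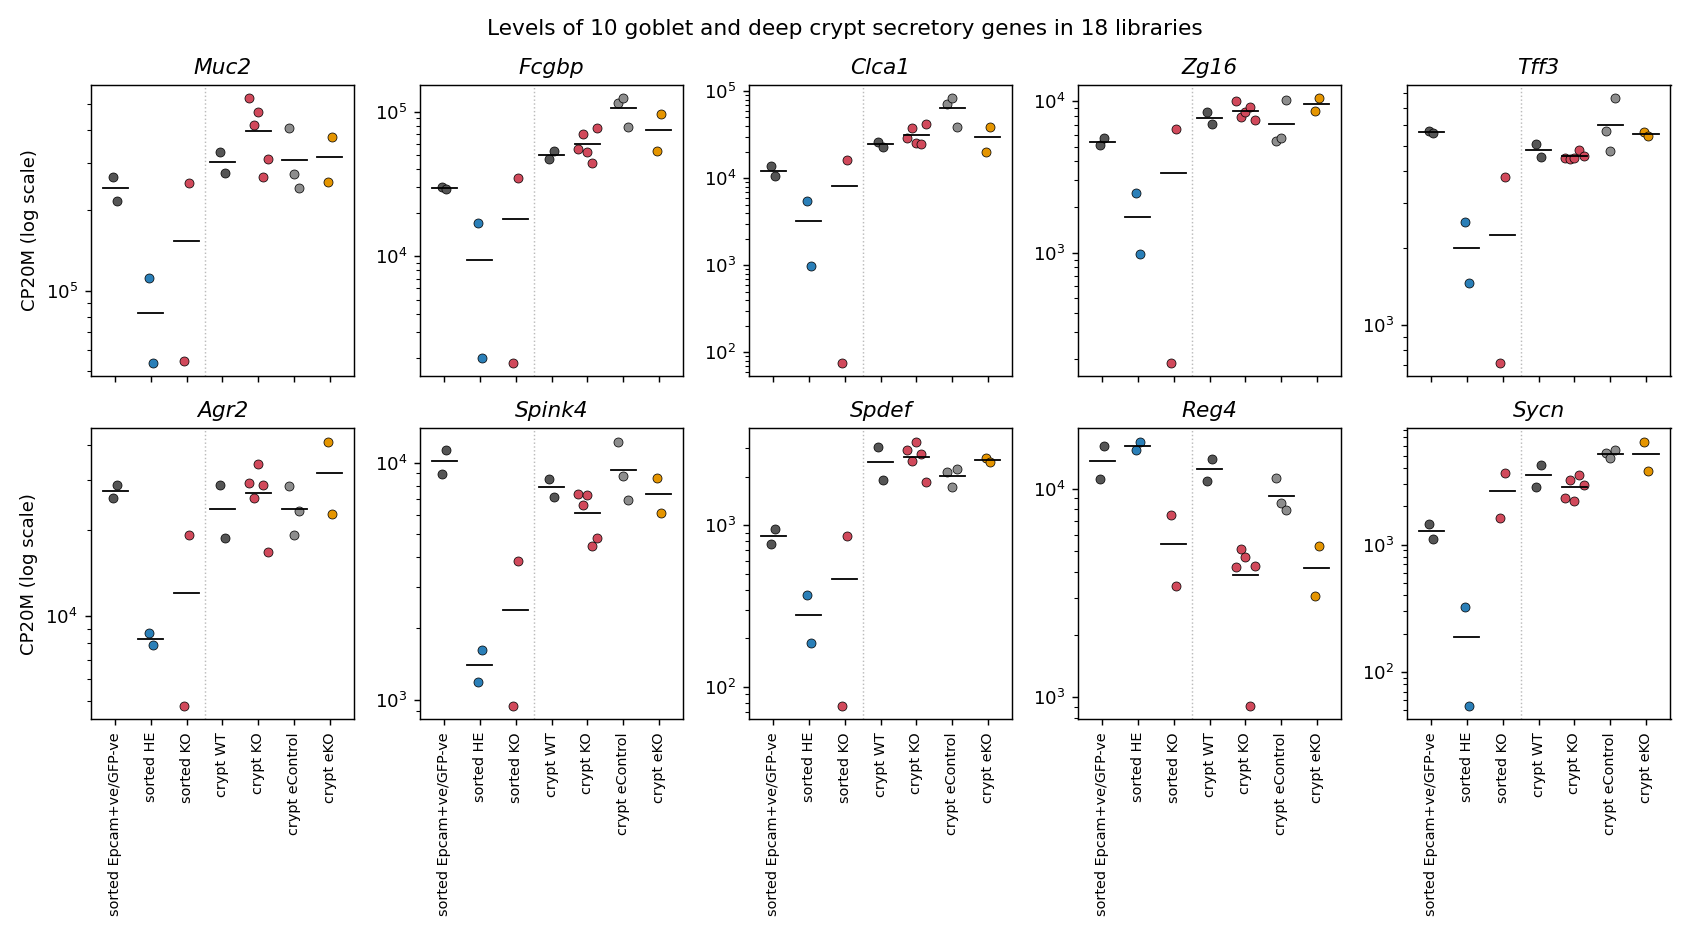
Level of each gene (CP20M, log scale, each panel with its own range) in the 7 groups; points are libraries and horizontal bars are group means. Muc2, Fcgbp, Clca1, Zg16, Tff3, Agr2, Spink4 and Spdef are spread widely between the 2 pools of sorted KO cells, while Reg4 is low in sorted KO, crypt KO and crypt eKO.

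Per kilobase of annotated exon, Muc2 had the highest group mean of the 10 in eControl crypts, at 43245 CP20M per kb, followed by Spink4 at 19563 and Agr2 at 18318. Spdef, the ETS transcription factor of goblet cell maturation, had the lowest, at 880 CP20M per kb. In HE pools the order was different at the top. Reg4, a secreted C-type lectin that marks deep crypt secretory cells and is also known from enteroendocrine cells, led with a group mean of 15724 CP20M per kb, ahead of Muc2 at 11628. Reg4 was the 4th of the 10 in Epcam+ve/GFP-ve cells, at 13280 CP20M per kb, and the 4th in WT crypts, at 12112. In eControl crypts, which are from the other line, it was the 8th, at 9022 CP20M per kb.

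The comparison of HE pools with Epcam+ve/GFP-ve cells asks which transcripts mark the cells that use the Olfr78 locus. The Epcam+ve/GFP-ve samples came from 1 wild type mouse, so reporter status, genotype and animal cannot be told apart here. Of the 10 genes, 8 were lower in the HE pools at a limma adjusted p under 0.05, against 11.3% of the 16355 genes tested that were lower, 12.5% that were higher and 23.8% called in either direction. The 8 were Spink4, Sycn, Clca1, Zg16, Agr2, Spdef, Muc2 and Tff3. In these and in Fcgbp both HE pools lay below both Epcam+ve/GFP-ve samples, as did 33.1% of all genes tested. The median log2 difference of the 10 genes was -1.75, beside -0.05 over all genes tested. Spink4 and Agr2 alone kept an adjusted p under 0.05 in limma without the trend, and Spink4 and Sycn alone with all 6 sorted libraries in 1 fit (Agr2 0.0846, Tff3 0.17, Muc2 0.193, Spdef 0.293, Zg16 0.43 and Clca1 0.49). Each fit without 1 sample or pool left 1 library in a group, so only log2 differences are given for these. Without Epcam+ve/GFP-ve sample 1 the log2 difference was -1.49 for Muc2 and -2.18 for Clca1, and without sample 2 it was -1.51 for Spdef. Without HE pool 1 the log2 difference was -4.32 for Sycn, -3.90 for Fcgbp and -3.60 for Clca1, and without HE pool 2 it was -1.94 for Sycn, -0.81 for Fcgbp, -1.15 for Clca1 and -1.13 for Zg16. In bulk samples, fewer goblet cells in a sort and less of their RNA per cell cannot be told apart.

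Among the components of the mucus gel, Muc2 was at 267309 and 217519 CP20M in the Epcam+ve/GFP-ve samples and at 111913 and 53833 in HE pools 1 and 2. The log2 difference was -1.64 (SE 0.36, limma adjusted p = 0.0141). Clca1, a secreted metalloprotease of mucus, went from 13873 and 10582 to 5466 and 987, and Zg16, a lectin of the mucus that binds Gram-positive bacteria, from 5149 and 5671 to 2463 and 987. HE pool 2 was the lower pool for all 3. The log2 differences were -2.38 (SE 0.63, limma adjusted p = 0.0279, DESeq2 adjusted p = 0.232) for Clca1 and -1.79 (SE 0.36, limma adjusted p = 0.0105) for Zg16. Fcgbp, the mucus protein that binds the Fc part of IgG, was at 30079 and 29402 in Epcam+ve/GFP-ve cells and at 17007 and 1987 in the HE pools, a spread of 8.56 times between the pools. Its difference of -2.35 (SE 0.77) did not pass the threshold with limma (adjusted p = 0.0592) or DESeq2 (adjusted p = 0.447) and did with edgeR (adjusted p = 0.0421).

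The small secreted peptides differed with less spread. Spink4, a Kazal-type serine protease inhibitor, was at 8993 and 11342 in Epcam+ve/GFP-ve cells and at 1186 and 1627 in the HE pools. It was 7.23 times lower by the group means and had the smallest p of the 10 (log2 difference -2.85, SE 0.22, limma adjusted p = 0.00011). It was the only one of the 10 past the stricter limits used for this comparison in the study's methods, adjusted p under 0.001 with a log2 difference beyond 2, which 0.171% of all genes passed as lower. Tff3, a trefoil peptide of goblet cells, was at 5730 and 5620 against 2520 and 1467 (log2 difference -1.56, SE 0.25, limma adjusted p = 0.00419). Agr2, a protein disulfide isomerase needed to fold Muc2, was at 26030 and 28775 against 8699 and 7921, a difference of -1.72 (SE 0.17, limma adjusted p = 0.000478). Agr2 and Spink4 kept to a narrow range in the 2 HE pools, unlike the mucus gel genes. Spdef was at 769 and 946 against 369 and 187 (log2 difference -1.66, SE 0.37, limma adjusted p = 0.0147).

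Sycn encodes syncollin, a zymogen granule protein first known from the acinar cells of the pancreas. It was at 1440 and 1110 CP20M in Epcam+ve/GFP-ve cells and at 323 and 54 in HE pools 1 and 2, the latter from 4 reads. The log2 difference was -3.13 (SE 0.66, limma adjusted p = 0.0119). Pancreatic acinar markers (9 genes, Sycn not among them) summed to at most 57 CP20M in any of the 18 libraries, and none of them reached 40 CP20M in any library. Reg4 went against the other 9. It was at 11174 and 15944 in Epcam+ve/GFP-ve cells and at 15293 and 16816 in the HE pools, which overlap, and the log2 difference of 0.26 (SE 0.21) did not pass the threshold (limma adjusted p = 0.402). Relative to Agr2 in the same library, Reg4 was at 42.9 and 55.4 reads per 100 Agr2 reads in Epcam+ve/GFP-ve cells and at 175.8 and 212.3 in the HE pools.

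Other genes of the secretory programme moved in part with the 8. Of 9 goblet transcription factors, 5 were lower (Atoh1, Creb3l4, Gfi1, Klf4 and Creb3l1) and 2 were higher (Foxa1 and Xbp1) in the HE pools by limma. Atoh1, the master factor of the secretory lineage, was at 1064 and 1264 in Epcam+ve/GFP-ve cells and at 346 and 174 in the HE pools (log2 difference -2.19, limma adjusted p = 0.00431). Gfi1, which acts below Atoh1, was at 63 and 93 and was listed at 0 in both HE pools. Foxa1, a forkhead factor of goblet and enteroendocrine cells, rose from 2771 and 2178 to 6352 and 9602 (log2 difference 1.66, limma adjusted p = 0.00237). Of 14 genes of folding and export in the endoplasmic reticulum, 7 were lower and 1, the chaperone Hspa5, was higher. Ern2, the stress sensor restricted to mucous epithelia, fell from 2700 and 1993 to 979 and 547. Of 14 other goblet products tested, 8 were lower and 0 higher at the limma threshold; they were Klk1, Ccl6, Muc3, Guca2a, Retnlb, Muc5b, Bcas1 and Muc4. The tissue kallikrein Klk1 fell from 11424 and 11917 to 1796 and 1361. Of 6 further deep crypt secretory markers, Cd44 alone passed, from 6266 and 5003 to 3498 and 1374. Stem and dividing cell markers (6 genes) summed to 21805 and 20765 CP20M in Epcam+ve/GFP-ve cells and to 6390 and 1684 in HE pools 1 and 2, with 4 of 6 past the threshold as lower, and 4 of 6 colonocyte markers were lower and 1 (Krt20) higher. The part of these other cell types in the lower goblet transcripts was not tested.

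The comparison of KO with HE pools asks what changes in GFP+ve cells when the remaining functional allele is lost. None of the 10 genes passed a limma adjusted p under 0.05, nor did any of the 15961 genes tested (0%), although 591 (3.7%) had an unadjusted p under 0.05. edgeR called 0 genes and DESeq2 called 7. Sycn was higher in both KO pools than in both HE pools and Reg4 was lower in both, whereas the other 8 genes overlapped between the genotypes. Of all genes tested, 34.3% did not overlap, 8.73% as higher and 25.5% as lower in the KO pools.

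Sycn was at 323 and 54 CP20M in HE pools 1 and 2 and at 1615 and 3684 in KO pools 1 and 2, from 28 and 4 reads in HE pools, against 43 and 317 in KO pools. The KO mean was 14.1 times the HE mean (log2 difference 4.07, SE 0.74, limma adjusted p = 0.933). With edgeR the adjusted p was 0.219 and with DESeq2 2.18e-05, which made Sycn 1 of the 0.0313% of genes that DESeq2 called higher. Both KO pools also lay above the Epcam+ve/GFP-ve samples (1440 and 1110), by 2.08 times in the mean, a difference that did not pass the threshold (limma adjusted p = 0.297). Without each pool in turn the log2 difference of Sycn ran from 2.88 to 5.26. Each of these fits left 1 pool in a group, so no p is given. The summed acinar markers in KO pools 1 and 2 were 38 and 12 CP20M.

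Reg4 was at 15293 and 16816 in HE pools, against 7472 and 3428 in KO pools, 2.95 times lower in the mean (log2 difference -1.66, SE 0.39, limma adjusted p = 0.933). The Reg4 difference was -2.22 without KO pool 1 and -1.10 without KO pool 2. It was -1.73 without HE pool 1 and -1.59 without HE pool 2. Its adjusted p was 1 with both edgeR and DESeq2. By the criterion of the study's methods for these pools, a difference of means beyond 2 times the mean SD and a fold beyond 1.5 with more than 40 CP20M in all 4 pools, Sycn was higher, as were 3.23% of the 11892 genes that criterion covers, and Reg4 was lower, as were 9.98%. The other 8 genes did not pass it. The median log2 difference over all genes tested was -0.22, and rescaling by the median of ratios moved Sycn to 4.24 and Reg4 to -1.48.

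For the 8 genes that overlapped, the KO pools lay far apart. KO pool 2 exceeded KO pool 1 by at least 4 times for all 8, which was the case for 12.8% of all genes tested. Clca1 was at 76 CP20M (2 reads) in KO pool 1 and at 16152 in KO pool 2, and at 5466 and 987 in HE pools 1 and 2. Fcgbp was at 1840 and 34605 in the KO pools and at 17007 and 1987 in the HE pools. Zg16 was at 188 (5 reads) and 6577 in the KO pools, and Spdef at 76 (2 reads) and 860. Muc2 followed with 54740 and 252362, Tff3 with 714 and 3765, Agr2 with 4806 and 19301 and Spink4 with 939 and 3858. In KO pool 2 Muc2 stood within the range of Epcam+ve/GFP-ve cells and Fcgbp, Clca1 and Zg16 above it, while in KO pool 1 those 3 lay below HE pool 2 and Muc2 close to it. Reg4 ran the other way within the KO genotype, 7472 in pool 1 and 3428 in pool 2. Atoh1 was at 38 and 1221 in KO pools 1 and 2. In each genotype the pool with more of the mucus gel genes had the lower enteroendocrine marker sum (355630 in KO pool 2 and 853733 in HE pool 1), and the part of this in the spread was not tested.

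**Figure D2:**
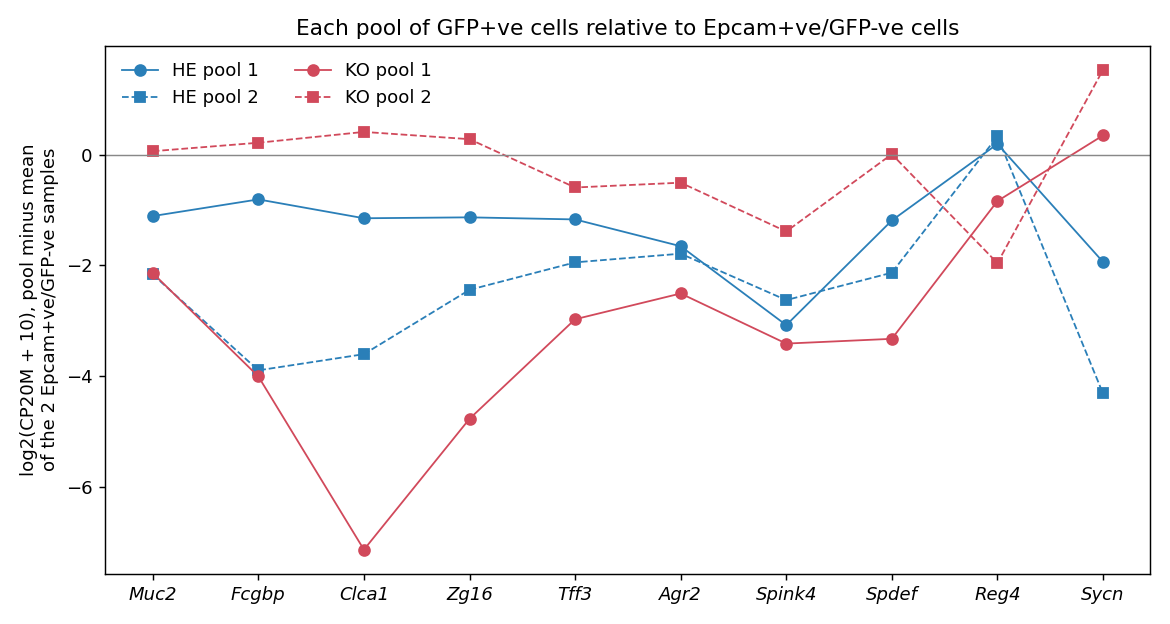
Level of each gene in the 4 pools of GFP+ve cells, as log2(CP20M + 10) minus the mean of the 2 Epcam+ve/GFP-ve samples; blue marks HE, red KO, circles pool 1 and squares pool 2. The lines of KO pools 1 and 2 lie farthest apart at Clca1 and cross between Spdef and Reg4, and both KO pools are above both HE pools at Sycn alone.

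Of 8 goblet transcription factors, 14 folding genes, 14 other goblet products and 6 deep crypt secretory markers tested, limma and edgeR called 0 between KO and HE pools. The summed enteroendocrine markers did not overlap between the genotypes, with the lower HE pool at 853733 and the higher KO pool at 601011 CP20M. Fibroblast and other stromal markers summed to 2903 and 3481 CP20M in HE pools 1 and 2 and to 3117 and 1466 in KO pools 1 and 2, most of it Vim, and immune markers to at most 95 CP20M in any sorted library. KO pools against Epcam+ve/GFP-ve cells gave 0 of the 10 genes at a limma adjusted p under 0.05, beside 0.735% of 15779 genes. These 2 comparisons share the KO pools.

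**Figure D3:**
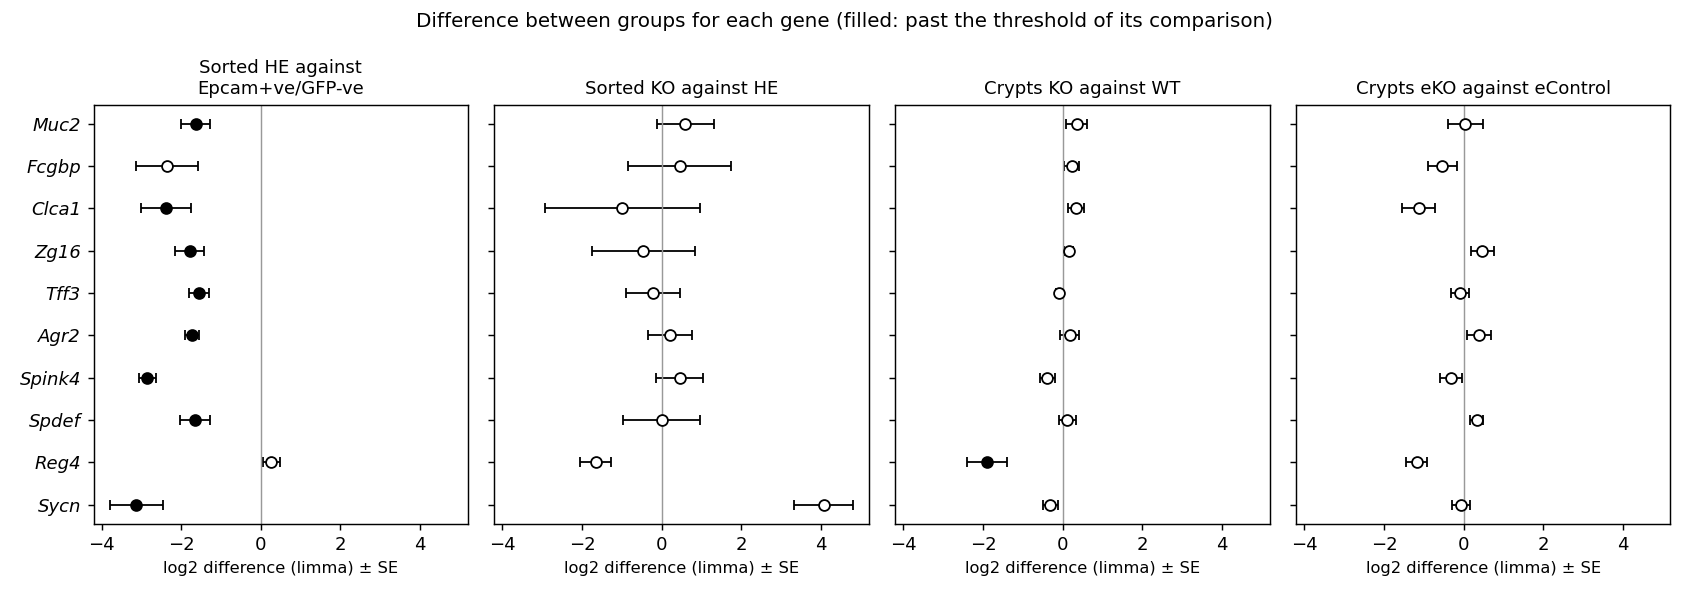
Log2 difference between groups with its SE from limma for each of the 10 genes in 4 comparisons; filled points passed the threshold of their comparison. Filled points lie left of 0 for 8 genes in HE against Epcam+ve/GFP-ve cells and for Reg4 in KO against WT crypts, and no other point is filled.

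Crypts ask the same of the whole epithelium. In KO and eKO crypts, Reg4 was the 1 gene of the 10 whose values separated libraries labelled KO or eKO from their controls in both lines, in the floxed line with the doubt on eKO 2 given above. It was at 10830 and 13902 CP20M in WT mice and at 4192, 5127, 4705, 907 and 4251 in KO mice 1 to 5. It was at 11263, 8513 and 7858 in eControl mice, at 3046 in eKO 1 and at 5305 in the library labelled eKO 2. Each of the 7 KO and eKO libraries was below each of the 5 controls, which 0.158% of the 16447 genes tested shared. The lowest control was at 7858 and the highest KO or eKO library at 5305.

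With both lines in 1 limma fit, the Reg4 difference was -1.56 on the log2 scale (SE 0.37, unadjusted p = 0.000836), 2.66 times lower by the means, and its adjusted p of 0.496 did not pass the threshold of 0.2. edgeR gave an adjusted p of 0.355 and DESeq2 0.0956, so that Reg4 was among the 0.128% of genes that DESeq2 called lower. None of the 10 genes was called by limma, as were 0.0243% of all genes. Without the library labelled eKO 2 the difference was -1.78 (limma adjusted p = 0.216). Without eKO 1 it was -1.51 (limma adjusted p = 0.0657), past the threshold, as were 1134 of 16388 genes, 126 of them lower. In that fit the library labelled eKO 2 alone stood for the knockouts of the floxed line. Without KO mouse 4, the mouse with 907 CP20M, Reg4 was at -1.31 (limma adjusted p = 0.0113) and was the 1 gene called of 16316.

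Within the Olfr78-GFP line, Reg4 was 3.22 times lower in KO than in WT crypts (3836 ± 1681, SD, n = 5, against 12366 ± 2172, SD, n = 2). It was the 1 gene of the 10 past the threshold of a limma adjusted p of at most 0.2 and a fold beyond 1.5 (log2 difference -1.89, SE 0.51, adjusted p = 0.0431), beside 9.48% of the 15975 genes tested, 1.53% lower and 7.95% higher. edgeR (adjusted p = 0.0308) and DESeq2 (adjusted p = 0.0825) also called it. Of 6 enteroendocrine markers, 5 had a log2 difference below 0 in the same mice and 2 were called lower by limma, Chgb (-0.61) and Cpe (-0.59). Of 5 stromal markers limma called 0 and edgeR 2 as lower, Col1a1 and Col1a2. The part of these cells in the Reg4 difference was not tested. The call was lost without WT mouse 2 (difference -1.71, limma adjusted p = 0.3), where 1 WT mouse remained and was assumed to vary like the KO mice. In the floxed line Reg4 was 2.21 times lower in eKO than in eControl crypts (4176 ± 1597, SD, n = 2, against 9211 ± 1807, SD, n = 3; difference -1.18, SE 0.27, unadjusted p = 0.00288). limma called 0% of 15401 genes there, with 0.825% at an unadjusted p under 0.05, while 2.79% of genes had both eKO libraries below all eControl libraries. DESeq2 called Reg4 (adjusted p = 0.092), as it did 0.0325% of genes as lower, and edgeR did not (adjusted p = 1). Without the library labelled eKO 2 the difference was -1.58, with eKO 1 alone in its group, so no p is given.

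Reg4 can also be read against another gene of the same library, which needs no scaling. Per 100 Muc2 reads there were 3.28 and 5.04 Reg4 reads in WT crypts and 2.77, 3.11 and 3.23 in eControl crypts. In KO crypts there were 0.797, 1.23, 1.01, 0.34 and 1.37, and in eKO crypts 1.20 and 1.41. The 7 KO and eKO values again lay below the 5 controls. Per 100 Agr2 reads, Reg4 was at 33.8 to 74.1 in the 5 control libraries and at 3.14 to 25.5 in the 7 KO and eKO libraries.

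**Figure D4:**
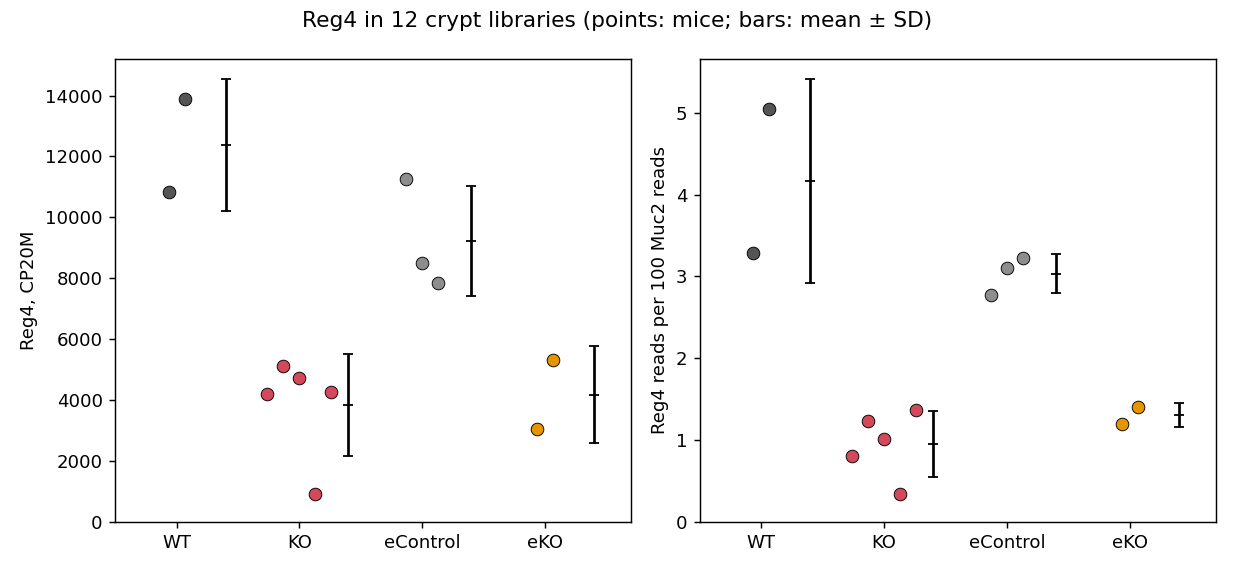
Reg4 in the 12 crypt libraries by group, as CP20M (left) and as Reg4 reads per 100 Muc2 reads of the same library (right); points are mice and bars the mean ± SD. In both panels every KO and eKO point lies below every WT and eControl point, and KO mouse 4, at 907 CP20M and 0.34 per 100, is the lowest.

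The mucus and goblet genes did not follow. Of the other 9 genes, none passed the limma threshold in either line or in both together. Muc2 was at 329720 and 275566 CP20M in WT and at 266389 to 525744 in KO crypts, with a median of 418331. It was at 406858, 274151 and 243604 in eControl and at 254720 and 377140 in eKO crypts, so that the groups overlapped in both lines. The differences were 0.35 (SE 0.26, limma adjusted p = 0.414) and 0.04 (SE 0.44, limma adjusted p = 1), the latter -0.24 without the library labelled eKO 2. Tff3 had the least spread in KO mice, 4454 to 4817 against 5092 and 4538 in WT mice (log2 difference -0.08, SE 0.08, limma adjusted p = 0.594). Spdef was at 1850 to 3308 in KO and 3039 and 1908 in WT mice, and Agr2 at 16690 to 34264 and 28882 and 18766. Spink4 was at 4463 to 7343 in KO and at 8548 and 7158 in WT mice (log2 difference -0.39, SE 0.19, limma adjusted p = 0.209), just outside the adjusted p and inside the limit on the fold. Zg16 was at 7476 to 9994 in KO and 8431 and 7023 in WT mice. Sycn, the gene with the largest KO to HE ratio of the 10 in sorted cells, was at 2195 to 3531 in KO crypts and 2831 and 4241 in WT crypts (log2 difference -0.31, SE 0.19, limma adjusted p = 0.316). It was at 5219, 4746 and 5556 in eControl mice and 6447 and 3793 in eKO mice, where the groups also overlapped (log2 difference -0.06, SE 0.23, limma adjusted p = 1; 0.32 without the library labelled eKO 2). Spdef was at 2139, 1720 and 2229 in eControl mice and 2619 and 2485 in eKO mice (log2 difference 0.34, SE 0.16, limma adjusted p = 1; 0.38 without the library labelled eKO 2). Without that library the log2 differences of the 9 in the floxed line ran from -1.61 (Clca1) to 0.81 (Agr2). That fit left eKO 1 alone in its group, so no p is given.

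Clca1 and Fcgbp stood at higher levels in eControl than in WT mice, a difference between the lines' controls that was not tested. Clca1 was at 26414 and 22889 in WT and 25017 to 41807 in KO mice, but at 71286, 83324 and 38684 in eControl mice and at 20072 and 39361 in eKO mice. Fcgbp was at 46873 and 53433 in WT mice and 44385 to 76660 in KO mice, and at 114791, 123671 and 77602 in eControl and 53287 and 95970 in eKO mice. The eKO to eControl difference for Clca1 was -1.12 (SE 0.42, limma adjusted p = 1), and -1.61 without the library labelled eKO 2. The KO to WT difference for Clca1 was 0.34 (SE 0.19, limma adjusted p = 0.282). The test of the difference between the lines gave -1.46 for Clca1 (SE 0.46, limma adjusted p = 0.557) and -0.76 for Fcgbp (SE 0.40, adjusted p = 0.566). It called 0 of the 10 genes, beside 0.0304% of all genes. DESeq2 called Clca1 (adjusted p = 0.162), with 0.286% of all genes called lower by it. Without the library labelled eKO 2 the limma difference between the lines was -1.95 for Clca1 and -1.18 for Fcgbp. In that fit eKO 1 alone stood for the knockouts of the floxed line, so no p is given. For Reg4 the lines differed by 0.71 (SE 0.75, limma adjusted p = 0.731), by 0.32 without the library labelled eKO 2 and by 0.25 without KO mouse 4 (adjusted p = 0.771).

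Other secretory genes in crypts were mostly below the thresholds as well. In KO against WT mice, 1 of 9 goblet transcription factors was higher, Gfi1, from 88 and 111 CP20M to 107 to 231 (log2 difference 0.69, limma adjusted p = 0.101). Of 14 folding and export genes and 6 deep crypt secretory markers, 0 were called. Of 14 other goblet products, 4 were higher and 1 was lower. Over all genes tested in KO against WT crypts, 7.95% were called higher and 1.53% lower. The gastric type mucin Muc6 rose from 182 and 163 to 220 to 561 CP20M (log2 difference 1.26, limma adjusted p = 0.0244), and Bcas1, Capn8 and Capn9 rose by 0.70, 0.74 and 0.76. Retnlb, the antimicrobial resistin-like protein of goblet cells, was lower, from 917 and 2001 to at most 907 (log2 difference -0.87, limma adjusted p = 0.044). The immune markers Cd74, Lyz2 and Ptprc were lower in KO crypts too, with the 5 immune markers summing to 665 and 804 CP20M in WT and 245 to 548 in KO mice; their part in the other differences was not tested. In both lines together and in the floxed line, 0 genes of these lists were called by limma or edgeR.

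How the genes varied among mice of a group was described over the 12 crypt libraries after the mean of each of the 4 groups was subtracted, with Pearson's r of log2(CP20M + 10). Points share libraries and depth, and no p is given. Over the 45 pairs of the 10 genes r ran from -0.71 to 0.94 with a median of -0.08. Fcgbp and Clca1 varied together (r = 0.94), as did Agr2 and Spdef (0.85), Tff3 and Zg16 (0.79) and Muc2 and Spink4 (0.72). Agr2 and Fcgbp (-0.71) and Muc2 and Sycn (-0.70) ran against each other, so the 10 genes did not vary as 1 block among crypts. Among 13061 genes above 40 CP20M in all 12 libraries, the genes most like Muc2 were Mia3, an export factor for large cargo (r = 0.95), and Muc5b, another gel-forming mucin (0.91). Clca1 was the second most like Fcgbp, after Usp24 (0.97), and Fcgbp the most like Clca1 (0.94). For Spink4 they were Slc24a5 (0.96) and Cd177 (0.95), for Spdef B4galt4 (0.98) and Cmah (0.96), for Agr2 Abhd8 (0.97) and Nov (0.97), and for Zg16 Retreg1 (0.92) and Gm19265 (0.91). For Tff3 they were Defb37 (0.99) and 9230104M06Rik (0.89), for Sycn Ip6k2 (0.94) and Apopt1 (0.93) and for Reg4 CT009718.1 (0.95) and Jak1 (0.89).

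Ordered by group mean, Reg4 ran from HE pools (16054 ± 1077 CP20M) through Epcam+ve/GFP-ve cells (13559 ± 3373), WT crypts (12366 ± 2172) and eControl crypts (9211 ± 1807), each overlapping the next, to KO pools (5450 ± 2860), eKO crypts (4176 ± 1597) and KO crypts (3836 ± 1681). The lowest eControl crypt library (7858) lay just above the higher KO pool (7472), which sets crypts against sorted cells extracted with another kit and was not tested. The 3 groups labelled KO or eKO overlapped. The eControl and eKO values come from a table of their own. Sycn ran from eControl crypts (5174 ± 407) to HE pools (189 ± 190), with the KO pools (2650 ± 1463) the 5th of 7 groups and no overlap between KO pools, Epcam+ve/GFP-ve cells and HE pools.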

How the data were processed

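Bulk RNA-seq was done on 18 libraries. Alignment by the authors used STAR and GRCm38, and HTSeq counted Ensembl genes; the deposited values are reads per gene scaled to 20000000 per library and rounded up (CP20M). Counting by strand is not given in the sources used here. One table held the sorted cells with the WT and KO crypts, and another the eControl and eKO crypts. The deposited sorted cell columns were treated as a signal from which whole reads were recovered, and the deposited crypt columns as a score, with reads recovered in the same way. In each library at least 99.8% of values above 0 and below 100000 equalled a whole number of reads times the worth of 1 read, rounded up, with no other tolerance. Every column of values was used. The total of recovered reads on genes sets the precision, and it covers counting error only.

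The 10 genes and the lists around them were chosen with earlier results of these data known. The main test was limma (version 3.58.1, R 4.3.3) with a trend on log2(CP20M + 10), for genes with at least 40 CP20M (2 CPM) in 2 libraries compared, with Benjamini-Hochberg adjustment over all genes tested. A fold change on this scale understates that of low genes. Sorted cells were called at adjusted p under 0.05, crypts at adjusted p at most 0.2 with a fold beyond 1.5, with line as a term for both lines together, and the difference between lines, an interaction term, at adjusted p at most 0.2. edgeR 4.0.16 (quasi-likelihood, TMM) and DESeq2 1.42.0 were run on recovered reads as alternatives. The steps were tested on simulated data. Named were the 10 genes, up to 4 genes of each list and direction with the smallest p, the 2 genes most like each member (1 of these is not reported here), and Olfr78; all members of a list that passed were named where that was brief. Libraries of a group are separate mice or pools except the Epcam+ve/GFP-ve samples, so p-values there measure spread that is in part technical. Gene positions and exon lengths are from GENCODE M21, promoters from RefSeq.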

Additional observations from a re-analysis of the deposited data

Results flagged for a closer look

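Of the 10 genes, 2 had a value in the 5 KO crypt libraries that stood apart by Dixon's test at the 95% level, both in KO mouse 4. Reg4 was at 907 CP20M there, against 4192 to 5127 in the other 4, and Tff3 was at 4817, against 4454 to 4545. Chance alone flags about 1 in 20 groups, and 10 groups of 5 were looked at, each at both ends. KO mouse 4 also had the lowest Muc2 of the KO mice (266389 CP20M), and its library of 8690363 reads on genes was not among the shallow ones. Without it, Reg4 stayed lower in KO than in WT crypts by 1.43 on the log2 scale (limma difference -1.43, adjusted p = 0.000481).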

How the results depend on the processing

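Counts here are of the 10 genes unless all genes are named. For HE against Epcam+ve/GFP-ve cells, 8 were called, beside 3892 of all 16355 genes. It was 2 without the trend (2019 of all genes) and 2 with all 6 sorted libraries in 1 fit (1466). At the strict limits it was 1 (287). Without each library, 1 library was left in a group, so no count is given. For KO against HE pools, 0 were called, 1 with DESeq2, 1 with no filter and 2 by the criterion of the methods. Without each KO or HE pool, 1 pool was left in a group, and only log2 differences are given. For KO pools against Epcam+ve/GFP-ve cells, 0 were called, 1 with DESeq2, 4 with the replicate block and 3 to 9 without each library. For both crypt lines together, 0 were called, 1 with DESeq2, 1 with the replicate block (Reg4, -1.34) and 0 to 1 without each library. For KO against WT crypts it was 1, 2 with the replicate block and 0 to 1 without each mouse. For eKO against eControl crypts it was 0, 1 with DESeq2 and 0 to 0 without each mouse, and for the difference between lines 0, 1 with DESeq2 and 0 to 2. Over all genes, KO against HE pools gave 7 calls with DESeq2, 2 with no filter and 1571 by the criterion. Both crypt lines gave 4, 38 with DESeq2 and 27 with the replicate block. KO against WT crypts gave 1514, and 1555 with the replicate block. eKO against eControl crypts gave 0, and 6 with DESeq2. The difference between lines gave 5, and 66 with DESeq2. The cause of the moves in these counts was not tested.

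Between KO and HE pools, log2 differences changed sign for Spdef with a pseudocount of 1 (-0.035), and for Tff3, Clca1 and Zg16 with edgeR (0.38, 1.51 and 1.18), DESeq2 (0.37, 1.51 and 1.14) and the ratio of means (0.17, 1.33 and 0.97). Without each pool in turn they ran from -0.50 to 1.70 for Muc2, -1.42 to 0.97 for Tff3, -0.79 to 1.22 for Agr2, -1.66 to 2.57 for Fcgbp, -4.76 to 2.79 for Clca1, -2.99 to 2.07 for Zg16, -0.56 to 1.47 for Spink4 and -1.67 to 1.67 for Spdef. In both crypt lines they ran from -0.26 to 0.11 for Fcgbp and -0.57 to 0.0015 for Clca1. In KO against WT crypts they ran from -0.16 to 0.0044 for Tff3, -0.13 to 0.49 for Agr2 and -0.21 to 0.46 for Spdef. In eKO against eControl crypts Muc2 was at -0.0093 with edgeR, -0.0112 with DESeq2 and -0.11 with the replicate block, and Tff3 at 0.097 with the block. Without each mouse they ran there from -0.24 to 0.33 for Muc2, -0.25 to 0.097 for Tff3, -0.033 to 0.81 for Agr2 and -0.44 to 0.32 for Sycn.

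Replicate numbers were not taken to pair the samples. With the replicate block, the calls over all genes went from 3892 to 4489 (HE against Epcam+ve/GFP-ve), from 0 to 1 (KO against HE), from 116 to 1001 (KO against Epcam+ve/GFP-ve), from 4 to 27 (both lines), from 1514 to 1555 (KO against WT) and from 0 to 13 (eKO against eControl). Deviations of equally numbered KO and HE pools correlated at -0.162, and pairs crossed, an alternative chosen after seeing the data, gave 2 of the 10 genes and 80 of all genes. Over all genes, HE against Epcam+ve/GFP-ve gave 287 calls at the strict limits, 1466 with all 6 libraries and 2019 without the trend; the criterion gave 1571 for KO against HE. KO against Epcam+ve/GFP-ve gave 543 with edgeR and 602 with DESeq2. Both lines gave 9 with edgeR, 38 with DESeq2 and 1134 without eKO 1, and the difference between lines 66 with DESeq2 and 4296 without eKO 2, beside 5. KO against WT crypts gave 854 with a pseudocount of 40 and 546 without WT mouse 2. Depth limits KO pool 1, in which Clca1 and Spdef rest on 2 reads.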

Other observations

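Retnlb and Ang4, goblet products outside the 10 genes, spread widely among mice of the floxed line. Retnlb was at 25988, 6379 and 665 CP20M in eControl mice 1 to 3, at 16723 in eKO 1 and at 14568 in the library labelled eKO 2, whereas WT mice had 917 and 2001 and KO mice at most 907. Ang4, an antimicrobial ribonuclease, was at 7504, 6616 and 462 in eControl mice, at 356 in eKO 1 and at 246 in the library labelled eKO 2. The pair was chosen after the values were seen.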
